A study of Mus musculus with 5 samples.

Results

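The cells described here are penis cells that carried a pericyte gene signature, taken from single-cell RNA-seq of the mouse penis at postnatal day 6. A cell entered the gate when it held at least 1 UMI (unique molecular identifier, a count of 1 captured RNA molecule) of 3 or more of the 6 pericyte genes Rgs5, Kcnj8, Abcc9, Notch3, Cspg4 and Higd1b, and a UMI of no more than 1 of the 3 smooth muscle genes Myh11, Cnn1 and Actg2. The members were thus chosen by measured values of 9 genes in the same cells, and those 9 genes are given only as a description. The gate held 543 of 19581 kept penis cells: 172 of 6788 in penis 1, 202 of 7085 in penis 2 and 169 of 5708 in penis 3. All 5 libraries of the series together held 62152 kept cells. The other 2 libraries were made from forelimb and hindlimb tissue of embryonic day 15 mice, in which the same gate held 604 cells (327 and 277). The labels give the C57BL/6N strain for every library while the study's methods name C57BL/6J, and no library carried a treatment or a targeted allele. The study's methods describe penises of male pups with the prepuce removed, from 2 litters, and both limb types taken from male embryos, so the forelimb and hindlimb libraries may share embryos. The labels do not tie a library to an animal, so p-values measure the spread between libraries. Penis libraries held 51529854 to 68417925 UMIs in kept cells, and any pair of the 5 libraries shared 9 to 124 cell barcodes.

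Pericytes are mural cells that lie within the basement membrane of capillaries and small venules, in contact with the endothelium. Endothelial PDGF-B recruits them through the receptor encoded by Pdgfrb, and Notch3 on the mural cell answers to Notch ligands on the endothelium. In erectile tissue, nitric oxide from nerves and endothelium activates soluble guanylate cyclase in smooth muscle and pericytes, the cGMP formed acts through the kinase encoded by Prkg1, and the vessels and trabeculae relax. Pericytes and vascular smooth muscle share many genes, and contractile proteins such as those encoded by Myh11 and Cnn1 are used to tell them apart.

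In 2 instances, genes of the signature pathways lie side by side and encode the partner subunits of 1 protein complex. Kcnj8 (chr6:142564837-142571614, GRCm38) encodes the pore and Abcc9 (chr6:142587862-142702315) the sulfonylurea receptor subunit of the ATP-sensitive potassium channel of mural cells, 16.2 kb apart. Gucy1a1 (chr3:82092427-82145789) and Gucy1b1 (chr3:82032006-82074689) encode the alpha and beta subunits of soluble guanylate cyclase, 17.7 kb apart, and neither was used by the gate. All 4 genes lie on the minus strand. The stretches upstream of their RefSeq start sites (GRCm38.p6) are shown because the genes of each pair lie side by side and encode 1 complex. They run up to 250 bases before the start and are cut to the bases that lie outside the annotated gene. Capitals mark TGGGAA or its reverse complement TTCCCA, letters bound by RBPJ, the nuclear partner of Notch receptors.
Gucy1a1: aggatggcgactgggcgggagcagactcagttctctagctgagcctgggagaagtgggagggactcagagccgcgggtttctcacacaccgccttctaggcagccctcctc
Gucy1b1: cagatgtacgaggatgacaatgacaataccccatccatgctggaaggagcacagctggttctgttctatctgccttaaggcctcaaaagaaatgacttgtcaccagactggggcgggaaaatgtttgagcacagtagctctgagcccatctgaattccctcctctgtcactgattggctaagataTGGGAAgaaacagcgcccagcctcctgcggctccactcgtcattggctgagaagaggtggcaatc
Kcnj8: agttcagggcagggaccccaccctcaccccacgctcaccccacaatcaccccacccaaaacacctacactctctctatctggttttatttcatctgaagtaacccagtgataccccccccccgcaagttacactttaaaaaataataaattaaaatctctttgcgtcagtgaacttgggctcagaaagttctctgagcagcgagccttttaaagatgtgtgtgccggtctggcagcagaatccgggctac
Abcc9: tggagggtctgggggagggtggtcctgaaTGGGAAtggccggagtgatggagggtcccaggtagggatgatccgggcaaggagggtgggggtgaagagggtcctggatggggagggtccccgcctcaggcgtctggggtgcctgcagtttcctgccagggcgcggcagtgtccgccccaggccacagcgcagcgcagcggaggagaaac
These windows are chr3:82145790-82145900 for Gucy1a1 (the outermost of 2 listed starts), chr3:82074712-82074961 for Gucy1b1, chr6:142571615-142571864 for Kcnj8 and chr6:142702316-142702524 for Abcc9. The letters occurred 1 time each in the windows of Gucy1b1 and Abcc9 and not in those of Gucy1a1 and Kcnj8. Of 32851 RefSeq windows, 21.6% held them within 250 bases, 18.6% within the 209 bases shown for Abcc9 and 11% within the 111 bases shown for Gucy1a1, so a match in these windows is common and is given as a description only.

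In the gate cells, both subunits of each complex were often detected together. Kcnj8 was detected in 372 of 543 cells, Abcc9 in 464 and both in 333; both counted toward the gate, so their joint detection follows in part from the rule. Gucy1a1, which did not count toward it, was detected in 268 cells, Gucy1b1 in 229 and both in 199. Among the 219 cells with 4 or more gate genes, Gucy1a1 was found in 184, Gucy1b1 in 161 and both in 148. Free RNA in droplets gives UMIs in cells that do not express a gene. Among 884 penis cells outside the gate with 5 or more of 10 epithelial markers (median 10822 UMIs, against 11426 in gate cells), Gucy1a1 was found in 18 cells (2.04%), Gucy1b1 in 7 (0.792%) and both in 2. In the gate cells the shares were 49.4% and 42.2%. Cells that passed the gate were left out of this epithelial set, and the source of the UMIs in gate cells was not tested.

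The gate took a similar share of each penis library. Gate cells were 2.53% of penis 1 (exact 95% binomial interval 2.17 to 2.94), 2.85% of penis 2 (2.48 to 3.27) and 2.96% of penis 3 (2.54 to 3.43), a mean of 2.78% ± 0.22 (SD, n = 3 libraries). The intervals cover counting error only, and they overlap. The share depended on sequencing depth. With every cell thinned to 2000 UMIs, shallower cells left out, 55 of 6291, 55 of 6474 and 58 of 5283 cells passed, a mean of 0.94% ± 0.14.

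Of the other gate genes, Notch3 was detected in 449 gate cells, Rgs5 in 326, Cspg4 (the proteoglycan NG2) in 315 and Higd1b in 77. The order differed between libraries: Rgs5 was found in 51.2% of gate cells in penis 1, 58.9% in penis 2 and 70.4% in penis 3, and Cspg4 in 65.7%, 53.5% and 55.6%. In all 3 libraries Abcc9 and Notch3 were the pair most often detected and Higd1b the least. In CPM (UMI counts summed over the cells of a set in 1 library and scaled to a total of 1000000), Rgs5, a regulator of G-protein signalling, stood at 929, 826 and 1420 in the gate cells of penis 1, 2 and 3, against 24.0, 22.7 and 20.8 in all other penis cells. Kcnj8 was at 154, 125 and 162 CPM, against 6.64, 5.77 and 5.93. Higd1b was at 48.8, 29.6 and 46.4 CPM, against 0.392, 0.122 and 0.683. These differences follow from the rule. Of the smooth muscle genes, of which 1 was permitted, 209 gate cells held 1 and 334 held none; it was Myh11 in 173 cells, Actg2 in 22 and Cnn1 in 14.

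Most members sat at the limit of the rule. Exactly 3 gate genes were detected in 324 cells, 4 in 96, and 5 or 6 in 123. The cells at the limit were deeper (median 12770 UMIs) than those with 4 (9361.5) or with 5 or 6 (8383), while other penis cells had a median of 9311. Just outside lay 1986 cells with exactly 2 gate genes (median 11594.5 UMIs), and 94 cells with 3 or more gate genes but exactly 2 smooth muscle genes.

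For genes the rule did not use, levels changed with the number of gate genes detected. Pdgfrb, the PDGF-B receptor, was at 75.1, 75.1 and 81.1 CPM in cells with 2 gate genes and at 88.2, 105 and 121 CPM in cells with 3. It then stood at 272, 339 and 407 CPM with 4 gate genes and at 631, 485 and 544 CPM with 5 or 6. Gucy1a1 was at 19.5, 25.8 and 20.03 CPM with 2 gate genes, 25.4, 56.5 and 67.0 with 3, 167, 265 and 351 with 4, and 633, 440 and 544 with 5 or 6. For both genes every library with 4 gate genes lay above every library with 3. Dcn (decorin, a proteoglycan of fibroblast matrix) went the other way. It was at 4983, 5101 and 5083 CPM with 2 gate genes, 8867, 6644 and 7033 with 3, 4555, 2501 and 504 with 4, and 34.7, 83.1 and 332 with 5 or 6. Wnt2, a secreted Wnt ligand, was at 197, 121 and 113 CPM with 3 gate genes and at 2.89, 0 and 2.09 CPM with 5 or 6. Kdr, the endothelial VEGF receptor, was at 25.4, 27.96 and 20.99 CPM with 3 gate genes and at 52.1, 124 and 121 CPM with 5 or 6.

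**Figure D1:**
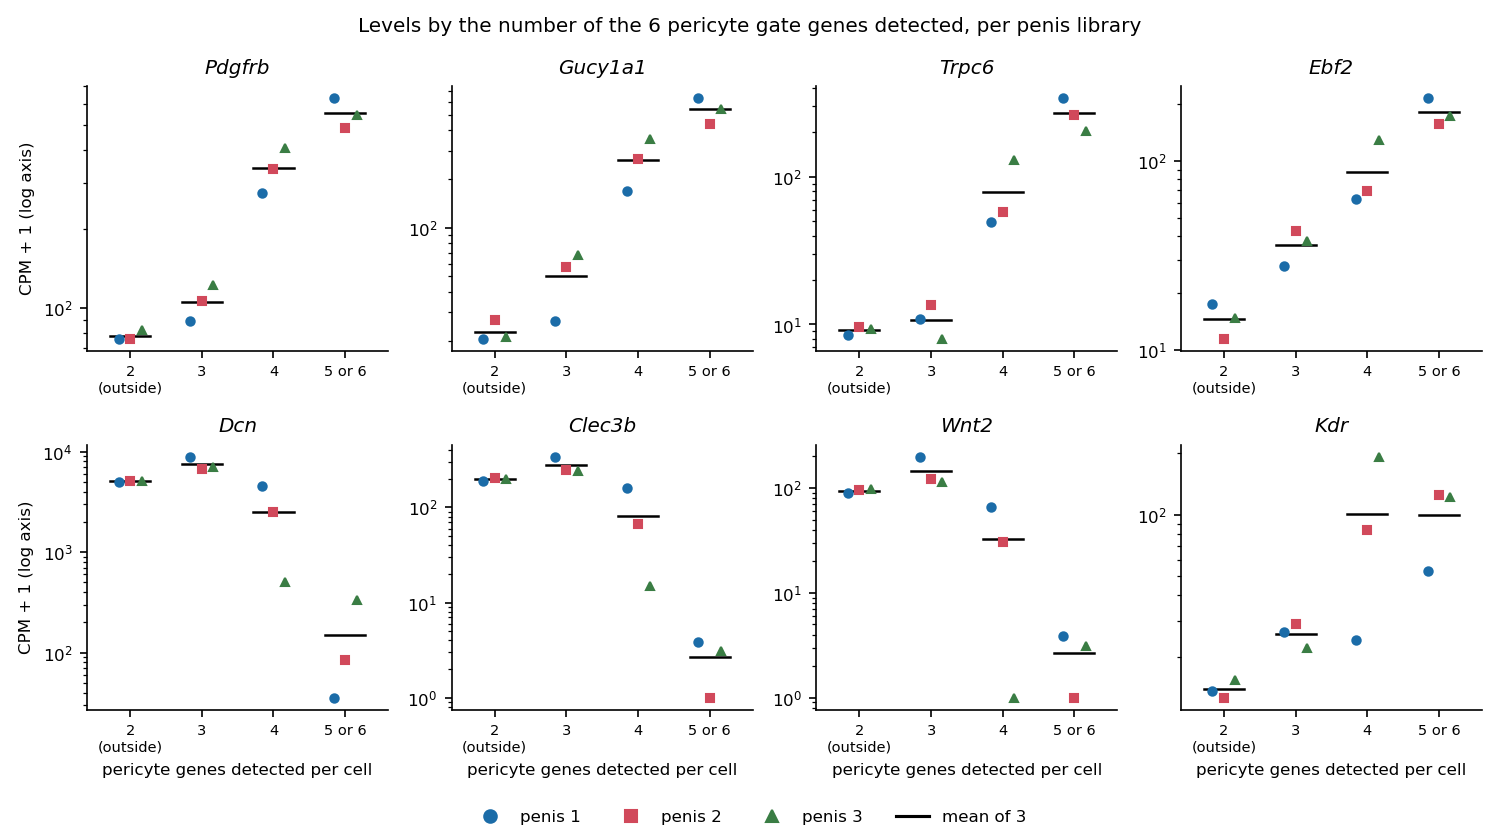
Levels of 8 genes that the gate did not use, in CPM plus 1 on a log axis, against the number of pericyte gate genes detected per cell (2 is just outside the gate). Points are the 3 penis libraries and bars their mean; Pdgfrb, Gucy1a1, Trpc6 and Ebf2 rise from 3 to 5 or 6 genes, Dcn, Clec3b and Wnt2 fall, and Kdr is highest in cells with 4 or more in penis 2 and 3.

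The gate cells did not form 1 group. The kept penis cells were clustered without the 9 genes of the rule, which gave 35 clusters; 27 held a gate cell and 10 held at least 10. Cluster 13, led by Acta2, Tagln, Kcnk3, Lmod1, Gucy1a1 and Mrvi1 beside genes of the rule, held 183 gate cells (33.7%; 52, 63 and 68 by library) and also 221 of the 347 cells with 2 or more smooth muscle genes (63.7%). It took in 53 of the 324 cells with 3 gate genes, 48 of the 96 with 4 and 82 of the 123 with 5 or 6. Next came cluster 11, led by Clec3b, Wnt2, Pi16 and Dpt, genes known from fibroblasts, with 97 gate cells, of which 91 had 3 gate genes. Cluster 24, led by Ebf2, Igfbp6 and Kera, held 50. Cluster 30, led by Prnd, Gpihbp1, Plvap, Kdr and Cdh5, genes known from endothelium, held 34, of which 20 had 5 or 6 gate genes. Cluster 25, led by the division genes Top2a, Cenpf and Hmmr, held 32.

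**Figure D2:**
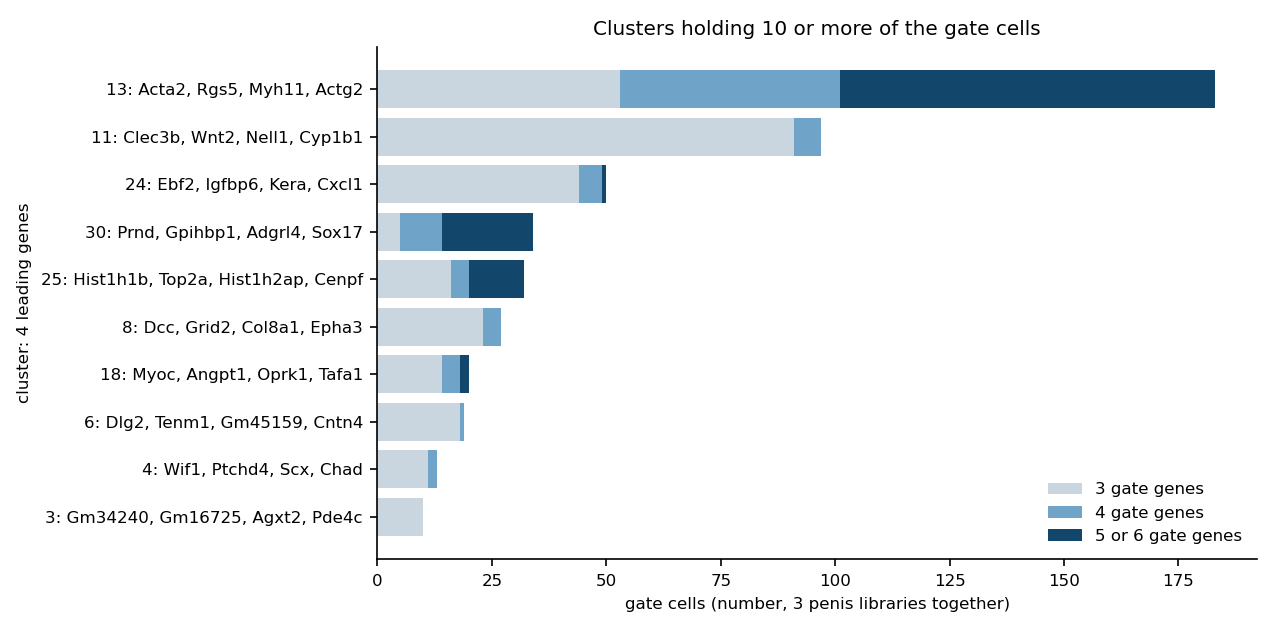
Number of gate cells (horizontal axis, 3 penis libraries together) in each of the 10 clusters that hold at least 10 of them (vertical axis, cluster number and its 4 leading genes), coloured by the number of gate genes detected. Cluster 13 holds 183, most with 4 or more gate genes; clusters 11 and 24 hold mainly cells with 3; cluster 30, led by endothelial genes, holds 34.

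The cluster with the most gate cells thus held more smooth muscle cells (221) than gate cells (183). The clusters did not set pericytes apart from smooth muscle, and the members are called gate cells below. Markers of other cell types moved with the gate. The summed level of 12 fibroblast markers was 10812, 8125 and 6996 CPM in gate cells against 5415, 5379 and 5247 CPM in other penis cells, and 4063, 2256 and 1039 CPM in those with 4 or more gate genes. The sum of 12 endothelial markers was 465, 915 and 1239 CPM in gate cells against 690, 641 and 701 CPM, and 932, 1995 and 2431 CPM in those with 4 or more. No marker of either list was at 0 in the gate cells. At least 3 fibroblast markers were detected in 352 of the 543 gate cells (64.8%) and at least 3 endothelial markers in 101 (18.6%). Among the 219 with 4 or more gate genes these were 79 and 73. The same shares were not counted in other penis cells, which were shallower (median 9311 UMIs against 11426 in gate cells). Whether the endothelial UMIs come from doublets, free RNA or the cells themselves was not tested. Of the gate cells, 53 (9.76%) lay in the top 5% of their library's doublet scores. List counts are therefore given for all gate cells and for the 219 cells with 4 or more gate genes. The text also says where a described gene lost its call or could not be tested there, for epithelial markers against limb only as a count.

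Compared with all other penis cells of the same library, the gate cells had more of the remaining pericyte markers and of the guanylate cyclase pathway. The comparison summed UMIs per library and set without the 9 genes of the rule. A gene was called where the edgeR quasi-likelihood test, with library as a block and Benjamini-Hochberg adjustment over all genes, gave an adjusted p under 0.01 and a log2 fold change beyond 1; "rose" and "fell" are used of called genes only. Of 18701 genes tested, 277 rose (1.48%) and 354 fell (1.89%). For cells with 4 or more gate genes, 545 of 18253 rose (2.99%) and 606 fell (3.32%), and the median over all genes was -0.11, against -0.03 for the whole gate. These shares are the background for the lists below, all of which were read from the same cells that the rule sorted.

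Of 25 further pericyte markers tested, 16 rose and 0 fell, with a median log2 fold change of 1.78. With 4 or more gate genes, 20 rose and 1 fell, with a median of 2.84. Pdgfrb was at 209, 205 and 282 CPM in gate cells of penis 1, 2 and 3 against 61.9, 63.4 and 62.9 CPM in other cells, a log2 fold change of 1.92 ± 0.09 (SE; adjusted p = 1.1e-06). All 3 gate values lay above all 3 others, and with 4 or more gate genes the change was 2.83. Ndufa4l2, a mitochondrial protein typical of pericytes, was at 201, 221 and 256 CPM against 61.4, 56.0 and 55.0 CPM (2.02 ± 0.09, adjusted p = 9.5e-07). Vtn, the adhesion protein vitronectin, was at 18.6, 13.0 and 10.7 CPM against 0.860, 1.25 and 0.904 CPM (3.85 ± 0.33, adjusted p = 4.5e-05). The transcription factor gene Ebf2 was at 63.2, 65.8 and 88.2 CPM against 7.53, 6.32 and 8.44 CPM (3.32 ± 0.12, adjusted p = 2.2e-07). For all of these the groups did not overlap.

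Other markers of the list that rose were Slc38a11, an amino acid transporter (4.57 ± 0.37), Itga7, a laminin-binding integrin (2.50 ± 0.19), Rasl12 (2.54 ± 0.18), Mcam, an adhesion molecule of vessel walls (1.75 ± 0.13), Steap4 (1.93 ± 0.22), Colec11 (2.71 ± 0.43) and the transcription factor Foxs1 (1.69 ± 0.27). The last 2 did not pass without penis 3 (Colec11 2.30, adjusted p = 0.026; Foxs1 1.53, adjusted p = 0.025). Cox4i2, a cytochrome oxidase subunit, and Art3, an ADP-ribosyltransferase homologue, were not called in the whole gate (0.68 and 0.62) and were called with 4 or more gate genes (1.30 and 1.49). In gate cells with no smooth muscle gene, Mcam (0.99), Slc38a11 (2.82, adjusted p = 0.021), Colec11 (2.29, adjusted p = 0.055) and Foxs1 (0.81, adjusted p = 0.31) were not called.

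The nitric oxide and cGMP list was led by the cyclase itself. Of its 16 tested genes 6 rose and 0 fell; with 4 or more gate genes 9 rose and 1, Npr3, fell. Gucy1a1 was at 149, 154 and 243 CPM in gate cells against 19.5, 19.8 and 21.6 CPM in other cells (3.18 ± 0.11, adjusted p = 1.5e-07). Gucy1b1 was at 78.5, 84.9 and 116 CPM against 11.2, 10.4 and 11.5 CPM (3.1 ± 0.12, adjusted p = 2.9e-07). The subunits thus rose by nearly the same amount, and with 4 or more gate genes the changes were 4.31 and 4.17. Gucy1a2, the alternative alpha subunit, was at 98.5, 101 and 156 CPM against 28.04, 27.0 and 28.7 CPM (2.10 ± 0.12, adjusted p = 3.2e-06). Mrvi1, which encodes the substrate through which cGMP kinase acts on calcium release, was at 37.6, 52.4 and 63.9 CPM against 6.67, 6.87 and 6.31 CPM (2.97 ± 0.17, adjusted p = 3.4e-06). Prkg1, the kinase, rose by less (1.07 ± 0.09, adjusted p = 2.8e-05; 0.92 without penis 3, where it was not called). The phosphodiesterase gene Pde3a rose (1.19 ± 0.08, adjusted p = 1.2e-05). Pde5a, whose product is the target of sildenafil, was at 156, 147 and 183 CPM against 116, 115 and 117 CPM. Its change of 0.52 ± 0.08 (adjusted p = 0.0011) was under the fold limit; with 4 or more gate genes it was 1.04 and called. In gate cells with no smooth muscle gene, Prkg1 (0.50) and Pde3a (0.53) were not called.

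**Figure D3:**
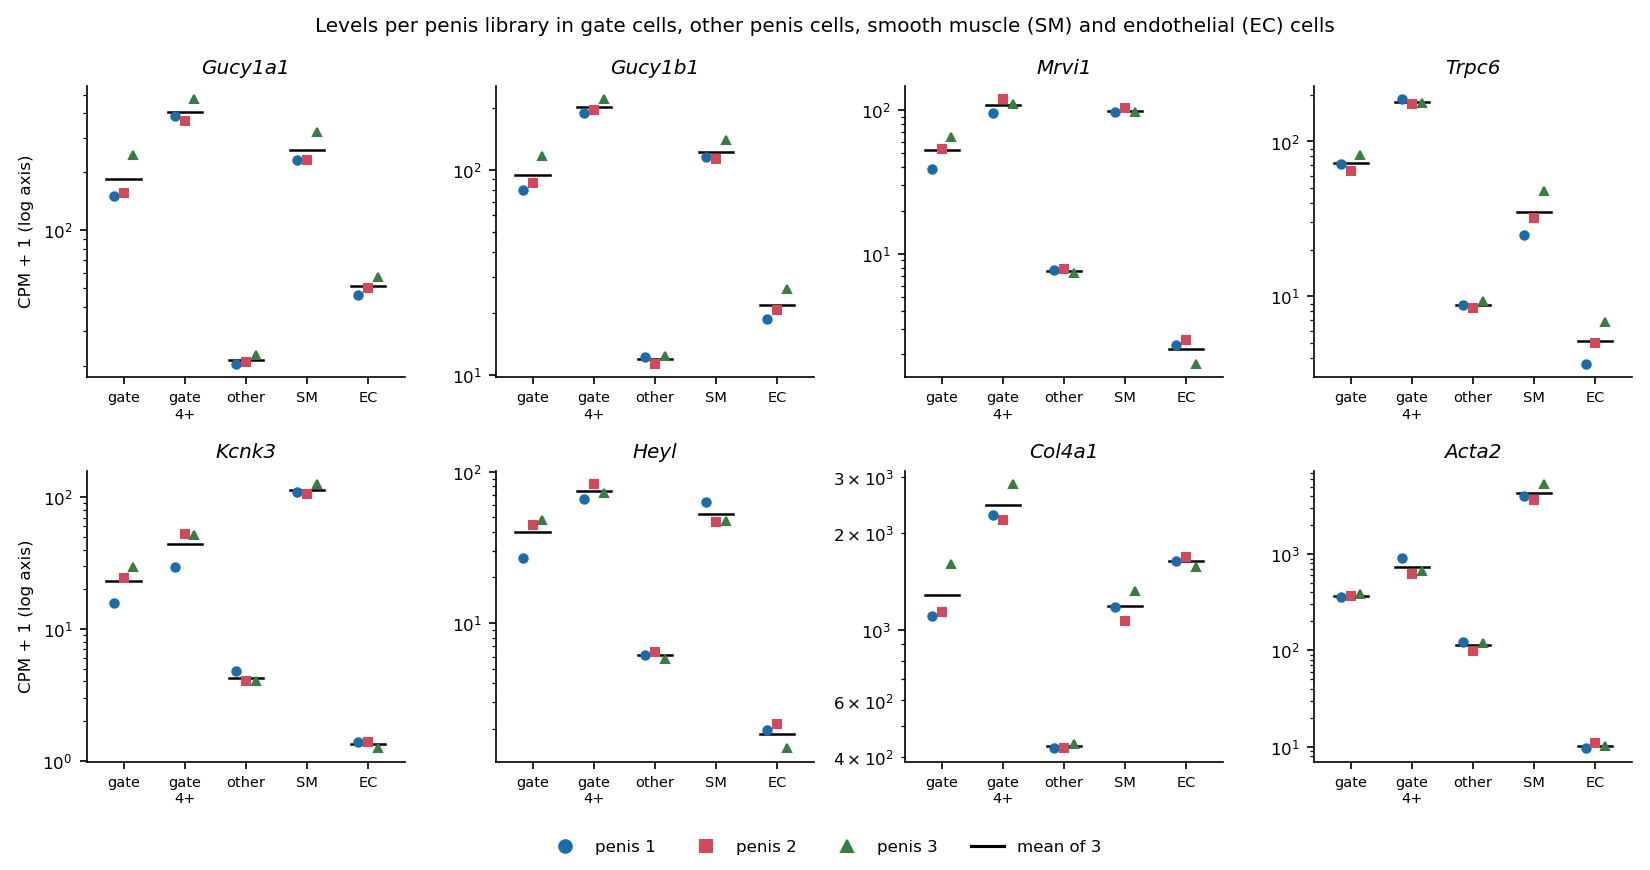
Levels of 8 genes in CPM plus 1 (log axis) in all gate cells, gate cells with 4 or more gate genes, other penis cells, smooth muscle cells (SM) and endothelial cells (EC). Points are the 3 penis libraries and bars their mean; the cyclase genes Gucy1a1 and Gucy1b1 are high in gate and smooth muscle cells, Trpc6 is highest in gate cells with 4 or more gate genes, and Acta2 is highest in smooth muscle cells.

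Among ion channels and connexins, 7 of 28 tested genes rose and 0 fell, and with 4 or more gate genes 7 rose and 1, Gja1, fell. Trpc6, a cation channel of vessel walls, was at 70.2, 63.3 and 80.3 CPM against 7.76, 7.40 and 8.38 CPM (3.22 ± 0.11, adjusted p = 1.5e-07). Kcnk3, an acid-sensitive potassium channel, was at 14.9, 23.6 and 28.3 CPM against 3.77, 3.03 and 2.99 CPM (2.79 ± 0.27, adjusted p = 1.0e-04). The groups did not overlap for either gene. Cacnb2, a calcium channel beta subunit, rose by 1.58 ± 0.10, and Ano1, the calcium-activated chloride channel, by 1.08 ± 0.09. The connexin genes Gja4 and Gjc1 rose by 1.46 ± 0.20 and 1.13 ± 0.08. In gate cells with no smooth muscle gene, Kcnk3 (0.59, adjusted p = 0.63), Ano1 (0.47, adjusted p = 0.029), Gja4 (1.03, adjusted p = 0.011) and Gjc1 (0.95) were not called. Without cells that held 2 or more endothelial genes, Gja4 was at 0.43 (adjusted p = 0.30), and in cells of at least 4000 UMIs Ano1 was at 0.97 and not called.

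Receptors for vasoactive signals split. Of 33 tested, 4 rose and 3 fell, with a median log2 fold change of 0.17; with 4 or more gate genes 6 rose and 2, Chrm2 and Ramp3, fell. Adra2a, an adrenergic receptor, was at 71.1, 82.0 and 89.4 CPM in gate cells against 20.8, 20.2 and 21.0 CPM (2.01 ± 0.10, adjusted p = 1.5e-06). Agtr1a, the angiotensin II receptor, was at 13.9, 12.6 and 14.1 CPM against 4.29, 3.82 and 4.06 CPM (1.78 ± 0.23, adjusted p = 0.00048). Both were above the other cells in every library. The vasopressin receptor gene Avpr1a (1.38 ± 0.17) and the prostaglandin receptor gene Ptger3 (1.16 ± 0.13) rose as well, though Ptger3 was at 0.32 (adjusted p = 0.42) in gate cells with no smooth muscle gene. Ednra, the endothelin A receptor, was at 144, 146 and 226 CPM against 99.6, 96.3 and 99.2 CPM; its change of 0.82 ± 0.11 was not called, and with 4 or more gate genes it was 1.58 and called. Calcrl (-1.03 ± 0.15) and Ramp3 (-1.33 ± 0.15), which encode a receptor and its partner for adrenomedullin, and the muscarinic receptor gene Chrm3 (-1.12 ± 0.15) fell. Calcrl was not called without penis 1 (-0.76) or in gate cells with no smooth muscle gene (-0.97), nor Chrm3 without penis 2 (-0.97), and neither was called with 4 or more gate genes (-0.75 and -0.69).

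Of 49 tested ligands and receptors of vessel assembly, 4 rose and 1 fell; with 4 or more gate genes 12 rose and 6 fell. The 8 that rose there and not in the whole gate were Aplnr, Dll4, Eng, Flt1, Jag1, Kdr, Pdgfa and Pdgfb, several of them known from endothelium. In the same cells 8 of 12 endothelial markers rose, and their part in these 8 genes was not tested. Flt1 and Kdr stand on both lists. Heyl, a transcriptional target of Notch, was at 26.0, 43.5 and 46.9 CPM against 5.13, 5.42 and 4.74 CPM (2.94 ± 0.21, adjusted p = 1.1e-05). Nrarp, a Notch target that restrains the pathway, was at 10.2, 15.0 and 30.5 CPM against 5.00, 4.13 and 4.36 CPM (2.01 ± 0.31, adjusted p = 0.0017). The gate values were the higher in every library, though Nrarp was not called without penis 2 (adjusted p = 0.011), without penis 3 (adjusted p = 0.017) or in gate cells with no smooth muscle gene (1.17, adjusted p = 0.063). Kitl, the ligand of the receptor Kit, rose by 1.60 ± 0.10. The heparin-binding growth factor gene Ptn fell by 1.01 on the log2 scale, and was not called without penis 1 (-0.85) or penis 3 (-0.97), in gate cells with no smooth muscle gene (-0.77) or without cells that held 2 or more endothelial genes (-0.86).

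Of the 6 genes of collagen IV, the network-forming collagen of basement membranes, Col4a1 to Col4a4 rose in gate cells. Col4a5 and Col4a6 were not called (-0.27 and -0.48), and with 4 or more gate genes both fell (-1.16 and -1.40). Of 41 tested basement membrane genes 7 rose and 1 fell; with 4 or more gate genes 12 rose and 4 fell, the other two being Lama2 and Lamc3. Col4a1 was at 1098, 1136 and 1601 CPM against 424, 426 and 439 CPM (1.60 ± 0.09, adjusted p = 3.4e-06). Its partner chain gene Col4a2 was at 568, 597 and 860 CPM against 232, 231 and 236 CPM (1.56 ± 0.10, adjusted p = 6.8e-06). Itga1, an integrin subunit that binds collagen IV, was at 175, 208 and 298 CPM against 45.3, 43.6 and 49.2 CPM (2.32 ± 0.11, adjusted p = 9.5e-07). No gate value of the 3 genes overlapped the other cells. Col4a3 (2.74 ± 0.43) and Col4a4 (1.67 ± 0.26) rose from levels of a few CPM; Col4a3 was not called without penis 2 (adjusted p = 0.023), nor Col4a4 without penis 3 (adjusted p = 0.023). Col18a1 rose by 1.04 ± 0.11, not called without penis 3 (0.85), and the laminin gene Lamc3 fell (-1.51 ± 0.21). In gate cells with no smooth muscle gene, Col4a3 (2.17, adjusted p = 0.071), Col4a4 (1.46, adjusted p = 0.012) and Col18a1 (0.72) were not called, and without cells that held 2 or more endothelial genes Col18a1 was at 0.36 (adjusted p = 0.021). Col4a3 also lost its call without the top 5% of doublet scores (adjusted p = 0.016). Against smooth muscle cells, defined below, 0 of 38 basement membrane genes were called higher and 2, Itga8 and Lama5, lower. In edgeR 23 had an unadjusted p under 0.05, 10 of them higher. With 4 or more gate genes 2 of 34, Col4a1 and Col18a1, were higher and 2, Col4a6 and Itga8, lower.

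Of 36 transcription factors of limb, genital and vessel patterning, 3 rose and 0 fell. Nr2f1 was at 121, 117 and 158 CPM against 33.2, 32.1 and 34.9 CPM (2.02 ± 0.09, adjusted p = 7.2e-07). Nr2f2, known from veins, rose by 1.69 ± 0.11, and Epas1, the hypoxia-inducible factor of vessels, by 1.60 ± 0.11. The same 3 rose with 4 or more gate genes, where 5 of 35 fell, Hoxd12, Hoxd13, Prrx2, Tbx4 and Tbx5. Against smooth muscle cells, defined below, 0 of 32 genes of this list were called by edgeR or DESeq2. In edgeR 17 had an unadjusted p under 0.05, 11 of them higher. With 4 or more gate genes 1 of 29, Nr2f1, was higher and 4 were lower. Against endothelial cells Nr2f1 was higher and neither Nr2f2 nor Epas1 was called, at either limit of the gate. Of 25 genes of fetal growth 1, Dlk1, rose and 1, Igf1, fell (-1.33 ± 0.08, adjusted p = 3.4e-06). With 4 or more gate genes 1 of 24, Igfbp7, rose and 6 fell, Cdkn1c, Igf1, Igfbp2, Igfbp4, Igfbp5 and Peg3, and Dlk1 was not called (0.28, adjusted p = 0.16). Among 15 genes of androgen and steroid signalling 0 rose and 1 fell, and with 4 or more gate genes 0 rose and 2, Hsd11b2 and Srd5a2, fell. Srd5a2, which converts testosterone to dihydrotestosterone, was at 13.0, 24.8 and 19.8 CPM against 66.8, 69.0 and 64.1 CPM (-1.75 ± 0.15, adjusted p = 4.4e-05), and the groups did not overlap.

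Matrix and contractile genes depended on the limit of the gate. Of 34 fibrillar matrix genes, 1 rose (Aspn, 1.13 ± 0.06) and 1 fell (the glycoprotein gene Tnc, -1.16 ± 0.09) in the whole gate, with a median of 0.24. With 4 or more gate genes 0 rose and 21 fell, with a median of -1.19, and Aspn was no longer called (0.86). Dcn was at 6668, 4892 and 4152 CPM in the whole gate and at 2429, 1124 and 396 CPM with 4 or more gate genes, against 3012, 2967 and 2893 CPM in other cells. Its log2 fold change was 0.84 ± 0.10, not called, in the whole gate and -1.50 ± 0.32 (adjusted p = 0.0063) with 4 or more. Of 12 fibroblast markers 3 rose and 0 fell in the whole gate, and 0 rose and 6 fell with 4 or more gate genes. Of those that fell, Col14a1, Dcn, Lum and Mfap5 are also on the matrix list. Clec3b, which leads cluster 11, rose by 1.38 ± 0.12 (adjusted p = 6.0e-05) in the whole gate and stood at -0.98 ± 0.37 (adjusted p = 0.10) with 4 or more. The gate as defined thus mixed cells of opposite matrix levels.

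**Figure D4:**
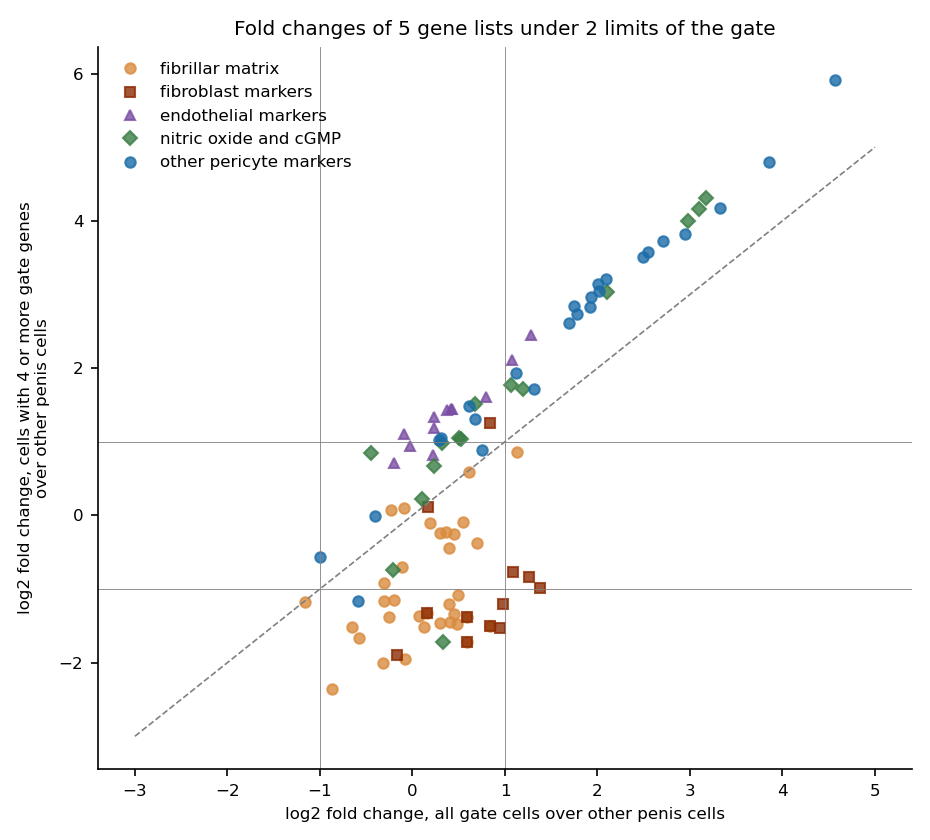
Log2 fold change over other penis cells for all gate cells (horizontal) and for gate cells with 4 or more gate genes (vertical), 1 point a gene, for 5 lists coloured by list; the dashed line marks equal change and thin lines the fold limit of 1. Most pericyte markers and cGMP genes and every endothelial marker lie above the dashed line, while most fibrillar matrix and fibroblast genes lie below it; Arg2, at -9.46 on the vertical axis, is not drawn.

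Of 31 contractile genes, 4 rose (Acta2, Cald1, Lmod1 and Myl9) and 0 fell, and with 4 or more gate genes 15 rose and 0 fell. Acta2, smooth muscle actin, was at 354, 364 and 381 CPM against 121, 98.9 and 120 CPM (1.75 ± 0.08, adjusted p = 8.0e-07). In the 334 gate cells with no smooth muscle gene its change was 0.37 (adjusted p = 0.14). Of 12 endothelial markers 1, Esam, rose in the whole gate and 8 rose with 4 or more gate genes. Cdh5, the endothelial cadherin, was at 30.7, 94.6 and 129 CPM against 62.3, 59.8 and 63.4 CPM, below the other cells in penis 1 and above them in penis 2 and 3. Its change was 0.41 ± 0.27 (adjusted p = 0.42) in the whole gate and 1.45 ± 0.25 (adjusted p = 0.0013) with 4 or more gate genes. Kdr was at 29.3, 52.8 and 75.8 CPM against 30.2, 28.8 and 31.9 CPM (0.79 ± 0.19, adjusted p = 0.023), and without penis 1 its change was 1.10 and called.

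Further genes named by a rule on size and level, outside the lists, were higher in every library. Pip5k1b, a phosphoinositide kinase, was at 143, 174 and 205 CPM against 32.1, 30.3 and 31.7 CPM (2.51 ± 0.10, adjusted p = 4.3e-07). Rasgrp2, an exchange factor for Rap, was at 48.8, 54.0 and 61.1 CPM against 10.3, 8.42 and 9.30 CPM (2.59 ± 0.14, adjusted p = 2.2e-06). Ccdc141 (2.53 ± 0.12), the protocadherin gene Pcdh19 (2.40 ± 0.11), Pawr (2.40 ± 0.16) and the fatty acid binding protein gene Fabp7 (2.19 ± 0.13) rose as well. Of these Fabp7 was not called in gate cells with no smooth muscle gene (0.39, adjusted p = 0.56). At the other end stood genes of blood and other cells. Lyz2, lysozyme of myeloid cells, was at 3.25, 10.2 and 5.66 CPM in gate cells against 188, 151 and 184 CPM (-4.67 ± 0.21, adjusted p = 8.0e-07). S100a8, S100a9, Psca and Spp1 fell too, to 10.6 CPM or less in every library. Of 10 myeloid markers 8 fell, of 10 epithelial markers 4, of 11 cartilage and bone markers 5 and of 9 Schwann markers 2 and of 6 tendon markers 2, and no marker of these lists rose. With 4 or more gate genes 7 myeloid, 8 epithelial, 4 cartilage and bone, 4 Schwann and 2 tendon markers fell, and again 0 rose. None of 6 red cell markers was called by edgeR or DESeq2, and 0 had an unadjusted p under 0.05.

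Genes of cell division were also summed. The level of 30 of them together was 1294, 1204 and 1151 CPM in gate cells against 869, 818 and 949 CPM in other cells, a log2 ratio of 0.47 ± 0.17 (SD, n = 3). The gate was the higher in 3 of 3 libraries, and the two-sided exact paired permutation test gave p = 0.25, the smallest that 3 pairs allow. No single gene of the list was called in the whole gate by edgeR or DESeq2, while 21 of the 30 had an unadjusted p under 0.05 in edgeR, all 21 higher in gate cells. With 4 or more gate genes 6 rose, Ccna2, Cenpe, Cenpf, Kif11, Mki67 and Prc1. Among gate cells of cluster 13 the sum was 552, 516 and 457 CPM, below the other cells, and 32 gate cells lay in the cluster led by division genes.

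Contractile smooth muscle cells, defined as penis cells with 2 or more of Myh11, Cnn1 and Actg2, numbered 347 (135, 120 and 92), and 157 of them also held 3 or more gate genes. Against them, with the 9 genes again left out, 199 of 11637 genes were higher in gate cells (1.71%) and 165 lower (1.42%). Without penis 2 these were 74 and 76. Among cells with 4 or more gate genes, 194 of 9611 were higher (2.02%) and 181 lower (1.88%). Of 29 contractile genes 0 were higher and 20 lower, with a median of -1.56, and with 4 or more gate genes 0 of 28 were higher and 15 lower. Acta2 was at 354, 364 and 381 CPM in gate cells against 3985, 3649 and 5349 CPM (-3.54 ± 0.11, adjusted p = 5.2e-09). Tagln, transgelin, was at 172, 214 and 216 CPM against 2039, 2178 and 2722 CPM (-3.52 ± 0.10, adjusted p = 3.2e-09). Myocd, the coactivator that drives smooth muscle genes, was at 10.7, 10.96 and 9.62 CPM against 130, 138 and 149 CPM (-3.71 ± 0.15, adjusted p = 5.2e-08). The groups were far apart for all 3 genes. Lmod1 (-2.67 ± 0.11), Mylk, myosin light chain kinase (-2.25 ± 0.10), and, outside the list, Fbxl22 (-4.54 ± 0.33), Pcp4 (-4.33 ± 0.23) and Sbspon (-4.28 ± 0.24) were lower as well. For gate cells of cluster 13 Mylk was at -0.79 and not called. Because cells with several contractile genes could not enter the gate, lower contractile genes lie close to what it used.

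The pathway genes shared by pericytes and muscle differed less. Gucy1a1 was at 149, 154 and 243 CPM in gate cells against 228, 227 and 317 CPM in smooth muscle cells (-0.52 ± 0.09, adjusted p = 0.0037). Within each library the gate was the lower, and the change was under the fold limit. In cells with 4 or more gate genes, Gucy1a1 was at 386, 365 and 472 CPM and its change turned to 0.64 ± 0.10, again under the limit. Gucy1b1 behaved likewise (-0.40 ± 0.11 in the whole gate, 0.70 ± 0.12 with 4 or more). None of 23 further pericyte markers was called either way in the whole gate by edgeR or DESeq2; 12 had an unadjusted p under 0.05 in edgeR, 6 of them higher. Pdgfrb (0.23 ± 0.11, adjusted p = 0.29), Ndufa4l2 (0.29 ± 0.09), Vtn (1.48 ± 0.37, adjusted p = 0.024), Steap4 (1.22 ± 0.27, adjusted p = 0.012) and Ebf2 (0.93 ± 0.15) did not pass, and with 4 or more gate genes all 5 were called higher (1.18, 1.35, 2.48, 2.28 and 1.81). In total, 7 of the 23 were then higher and 1 lower. The stricter limit asked for more pericyte genes per cell, and the smooth muscle set asked for none. Higher pericyte markers there thus lie close to what the rule used. Endothelial markers moved with the pericyte markers. Of 12, 2 (Cdh5 and Kdr) were higher than in smooth muscle in the whole gate and 9 with 4 or more gate genes, with a median of 1.81 there. The Cdh5 call was lost with DESeq2, without penis 2, without the library block and in gate cells with no smooth muscle gene. Without cells that held 2 or more endothelial genes, Kdr lost its call and Cdh5 turned. The 12 endothelial markers summed to 932, 1995 and 2431 CPM in cells with 4 or more gate genes against 572, 543 and 451 CPM in smooth muscle cells. Their part in the result was not tested.

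Trpc6 was the channel higher in gate cells, at 70.2, 63.3 and 80.3 CPM against 23.8, 31.1 and 47.0 CPM in smooth muscle (1.12 ± 0.17, adjusted p = 0.0014). The call was lost without penis 1 (0.89) or penis 2 (adjusted p = 0.043), with DESeq2 (1.11, adjusted p = 0.011), in cells of at least 4000 UMIs (0.98) and without cells that held 2 or more endothelial genes (0.94), and with 4 or more gate genes the change was 2.42 ± 0.20. On the muscle side stood Kcnk3 (-2.36 ± 0.17), the adrenergic receptor gene Adra1a at 4.65, 4.87 and 7.35 CPM against 34.5, 36.0 and 53.4 CPM (-2.87 ± 0.23, adjusted p = 1.1e-05), and the integrin gene Itga8 at 37.6, 41.4 and 29.4 CPM against 256, 339 and 286 CPM (-3.01 ± 0.12, adjusted p = 5.2e-08). Kcnk3 thus was above other penis cells and below smooth muscle, though for gate cells of cluster 13 its difference from smooth muscle was not called (-0.59, adjusted p = 0.054). Of 11 fibroblast markers 8 were higher in the gate and 0 lower, and with 4 or more gate genes 0 of 9 were higher and 1 lower. Clec3b was at 252, 177 and 140 CPM against 16.7, 15.5 and 28.9 CPM (3.31 ± 0.23, adjusted p = 2.9e-06), and Wnt2 at 142, 86.5 and 64.5 CPM against 7.74, 8.48 and 10.7 CPM (3.52 ± 0.24, adjusted p = 2.8e-06). Wnt2 was at 35.4, 12.8 and 1.30 CPM with 4 or more gate genes, where it did not pass the filter on low counts and was not tested. Il1rapl2 (4.07 ± 0.18), Dcc (3.78 ± 0.25) and Ly6c1 (3.57 ± 0.24) were also higher. Dcc was a leading gene of cluster 8, which held 27 gate cells and 2 smooth muscle cells. Clec3b was not called with 4 or more gate genes (0.90, adjusted p = 0.41), and Dcn, called at 2.25 ± 0.15 in the whole gate, was at -0.059 there.

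Endothelial cells were defined as penis cells with 3 or more of Pecam1, Cdh5, Emcn, Cldn5, Ecscr and Cd93, outside both the gate and the smooth muscle set. They numbered 1397 (487, 504 and 406). Against them, 1812 of 13217 genes were higher in gate cells (13.7%) and 1111 lower (8.41%). For cells with 4 or more gate genes, 1040 of 12220 were higher (8.51%) and 680 lower (5.56%). The endothelial set was chosen by endothelial genes and the gate by pericyte genes. Differences of such genes, here and in the next paragraph, lie close to what the rules used. For Pdgfb with Pdgfrb and Angpt1 with Tek, ligand and receptor genes differed in opposite directions. Other pairs of the list did not: Apln and Aplnr, Efnb2 and Ephb4, and Tgfb1 and Tgfbr2 were all lower in gate cells. Pdgfb, the ligand, was at 10.7, 13.0 and 26.6 CPM in gate cells against 78.5, 66.0 and 60.7 CPM in endothelial cells (-2.08 ± 0.26, adjusted p = 0.00025). Among cells with 4 or more gate genes, Pdgfb was at 20.4, 29.4 and 53.4 CPM and its call was lost (-1.02, adjusted p = 0.017). Its receptor gene Pdgfrb was at 209, 205 and 282 CPM against 7.87, 7.19 and 6.31 CPM (4.99 ± 0.14, adjusted p = 3.3e-07). Angpt1, the mural ligand of the receptor Tie2, was at 57.6, 86.1 and 123 CPM against 11.5, 12.3 and 21.4 CPM (2.56 ± 0.13, adjusted p = 2.2e-06). Tek, which encodes Tie2, was at 28.3, 46.3 and 33.9 CPM against 465, 476 and 530 CPM (-3.74 ± 0.14, adjusted p = 7.7e-07). Angpt2, an antagonist at Tie2, was the higher in gate cells (1.37 ± 0.13), and Tie1 the lower (-3.77 ± 0.20). No library of either set overlapped the other for these genes. Against smooth muscle cells Angpt2 was lower at both limits of the gate, and against other penis cells it fell with 4 or more gate genes. Angpt1 was not called against other penis cells at either limit.

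The Notch ligand gene Dll4 was at 6.97, 8.53 and 16.4 CPM in gate cells against 65.3, 59.2 and 47.8 CPM in endothelial cells (-2.48 ± 0.26, adjusted p = 9.3e-05). Its mural target gene Heyl was at 26.0, 43.5 and 46.9 CPM against 0.960, 1.14 and 0.486 CPM (5.38 ± 0.28, adjusted p = 2.2e-06). Ligand and target were on opposite sides in every library. Nos3, endothelial nitric oxide synthase, was at 3.25, 3.65 and 8.48 CPM against 71.4, 64.5 and 75.3 CPM (-3.83 ± 0.22, adjusted p = 3.2e-06). Gucy1a1 was at 149, 154 and 243 CPM against 45.3, 49.2 and 56.1 CPM (1.83 ± 0.11, adjusted p = 3.8e-06), and Gucy1b1 at 78.5, 84.9 and 116 CPM against 17.9, 19.9 and 25.2 CPM (2.15 ± 0.10, adjusted p = 1.5e-06). The synthase was thus higher in endothelium and the cyclase in gate cells. Edn1, endothelin, was at 1.39, 7.31 and 2.26 CPM against 44.5, 43.9 and 36.9 CPM (-3.43 ± 0.32, adjusted p = 4.7e-05), and its receptor gene Ednra at 144, 146 and 226 CPM against 7.10, 13.6 and 9.71 CPM (4.05 ± 0.19, adjusted p = 1.3e-06).

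By list, 20 of 24 pericyte markers were higher than in endothelium and 1 lower, 16 of 25 ion channels were higher and 3 lower, and 8 of 15 genes of the nitric oxide and cGMP list were higher and 3 lower. Of 34 fibrillar matrix genes 30 were higher and 1 lower, and of 48 vessel ligands and receptors 11 were higher and 19 lower. In cells with 4 or more gate genes, 20 of 24 pericyte markers were higher and 1 lower, 15 of 24 ion channels and 1, 8 of 15 cGMP genes and 3, 22 of 34 fibrillar matrix genes and 1, and 11 of 48 vessel genes and 18. Fibroblast markers moved with the matrix genes, 11 of 11 higher in the whole gate and 3 of 10 with 4 or more gate genes. The lists share Col14a1, Dcn, Lum and Mfap5, so part of this follows from the lists. Their sum was 10812, 8125 and 6996 CPM in gate cells against 662, 818 and 782 CPM in endothelial cells, and their part in the matrix result was not tested. Each share is to be read against that of all genes. Fabp7 (6.33 ± 0.22), Kcnk3 (5.86 ± 0.36), Ndufa4l2 (5.52 ± 0.27), Mrvi1 (5.32 ± 0.24), Acta2 (5.31 ± 0.10), Adra2a (5.06 ± 0.17) and Trpc6 (4.12 ± 0.18) were among the genes higher in gate cells. Tll1, a metalloprotease, was at 4.65, 14.6 and 17.5 CPM against 295, 293 and 421 CPM and so was lower (-4.78 ± 0.21, adjusted p = 1.1e-06).

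The same gate held 1.48% of forelimb and 1.35% of hindlimb kept cells. Limb cells were shallower, with a median of 5358 UMIs in forelimb and 6057 in hindlimb, against 8791.5 to 9909 in penis libraries. With every cell thinned to 2000 UMIs, the gate held 0.210% of forelimb and 0.233% of hindlimb cells, against a mean of 0.94% in penis. Penis and limb libraries differed in tissue, in age and in the limits by which cells were kept, and these cannot be told apart. Of 13096 genes tested, 981 were higher in penis gate cells (7.49%) and 730 lower (5.57%); without the forelimb library these were 609 and 444, and without the hindlimb library 595 and 486. Either way 1 limb library remained, which was assumed to vary as the penis libraries do, here and in the genes below. For cells with 4 or more gate genes, 532 of 9737 were higher (5.46%) and 345 lower (3.54%). Esr1, an estrogen receptor gene, was at 61.3, 82.8 and 73.5 CPM in penis gate cells against 2.45 in forelimb and 7.68 CPM in hindlimb gate cells (3.87 ± 0.33, adjusted p = 3.5e-05). Isl1, a transcription factor of genital mesenchyme, was at 182, 171 and 170 CPM against 0 and 1.98 CPM. Neither gene overlapped between tissues. The difference in Esr1 was also seen outside the gate, where it was at 87.9, 84.6 and 91.3 CPM in penis and at 4.15 and 7.24 CPM in limb.

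Of 48 vessel ligands and receptors 9 were higher in penis gate cells and 2 lower. Of 15 nitric oxide and cGMP genes 6 were higher and 1 lower, and of 23 ion channels 7 and 0. With 4 or more gate genes these were 5 and 1 of 46, 6 and 0 of 14, and 8 and 0 of 20. Of all genes, 7.49% were higher and 5.57% lower in the whole gate, and 5.46% and 3.54% with 4 or more gate genes. Pdgfrb was at 209, 205 and 282 CPM against 75.7 and 93.7 CPM (1.44 ± 0.15, adjusted p = 0.00010), and Gucy1a1 at 149, 154 and 243 CPM against 51.0 and 65.4 CPM (1.63 ± 0.20, adjusted p = 0.00026). Gucy1b1 was at 78.5, 84.9 and 116 CPM against 42.2 and 54.2 CPM; its change of 0.94 ± 0.17 was under the fold limit, and passed it without penis 1 (1.04) or hindlimb (1.11). Trpc6 was at 70.2, 63.3 and 80.3 CPM against 7.91 and 7.90 CPM (3.15 ± 0.17, adjusted p = 3.2e-06). The penis was the higher in every library. Of 24 pericyte markers 11 were higher and 2, Ebf2 and Tbx18, lower, and of 12 steroid genes 4 were higher and 1 lower. Among cells with 4 or more gate genes, 11 of 24 pericyte markers were higher and 0 lower, so Ebf2 and Tbx18 were no longer called, and 2 of 8 steroid genes were higher and 0 lower. Igfbp7 (3.39 ± 0.14), Apoe (4.05 ± 0.21) and the collagen gene Col4a6 (4.89 ± 0.30) were higher too. Their levels outside the gate are not given here. Against other penis cells Col4a6 was not called in the whole gate and fell with 4 or more gate genes.

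Most division genes and some genes of fetal growth were lower in penis gate cells. Of 24 fetal growth genes 3 were higher and 9 lower, and with 4 or more gate genes 3 and 12. Mest was at 134, 175 and 145 CPM against 1039 and 1143 CPM (-2.85 ± 0.14, adjusted p = 2.1e-06). Plagl1, a transcription factor of the imprinted gene network, was at 104, 113 and 112 CPM against 676 and 647 CPM (-2.60 ± 0.11, adjusted p = 1.4e-06), and the RNA-binding protein gene Igf2bp1 at 11.2, 8.12 and 7.92 CPM against 114 and 118 CPM (-3.67 ± 0.16, adjusted p = 1.4e-06). For all 3 genes the tissues were well apart. Cdkn1c (-2.10 ± 0.18), Hmga2 (-3.50 ± 0.35) and Igf2bp3 (-2.77 ± 0.18) were lower as well. Outside the gate Mest was at 173, 166 and 179 CPM in penis and 686 and 631 CPM in limb, Plagl1 at 93.9, 93.9 and 101 against 476 and 447 CPM, and Igf2bp1 at 5.81, 6.56 and 6.07 against 109 and 115 CPM. These 3 genes were thus lower in penis outside the gate too. Of 30 division genes 22 were lower and 0 higher, and with 4 or more gate genes 17 and 0. Their sum was 1294, 1204 and 1151 CPM in penis gate cells against 2878 and 2485 CPM in limb gate cells, and 869, 818 and 949 CPM against 2362 and 2286 CPM in other cells, so the penis was the lower in both sets. Mki67 was at 97.6, 78.8 and 77.5 CPM against 181 and 144 CPM; its change of -0.95 ± 0.14 was under the fold limit, and passed it without penis 1 (-1.07) or hindlimb (-1.12). Markers of other cell types moved with this comparison in both directions: 9 skeletal muscle markers summed to 6.97, 7.31 and 5.09 CPM in penis gate cells against 530 and 125 CPM in limb gate cells, and the cartilage collagen gene Col2a1 was at 7.43, 9.75 and 6.22 CPM against 152 and 208 CPM (-4.49 ± 0.21, adjusted p = 1.6e-06). On the penis side, 12 of 30 contractile genes were higher and 0 lower, among them Acta2, Tagln and Mylk. With 4 or more gate genes these were 9 of 28 and 0, and Acta2 was no longer called. A smooth muscle gene was held by 209 of 543 penis gate cells, against 97 of 604 in limb. Also, 4 of 7 epithelial markers (Dsp, Krt14, Krt5 and Lgals7) and 6 of 11 fibroblast markers were higher. Epithelial markers summed to 83.6, 603 and 221 CPM in penis gate cells against 34.6 and 28.1 CPM, and fibroblast markers to 10812, 8125 and 6996 CPM against 3332 and 2562 CPM. In cells with 4 or more gate genes, 1 of 2 tested epithelial and 1 of 9 tested fibroblast markers were higher. Most of the epithelial markers named above were thus not called or not tested there. The part of markers of other cell types in the result was not tested.

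**Figure D5:**
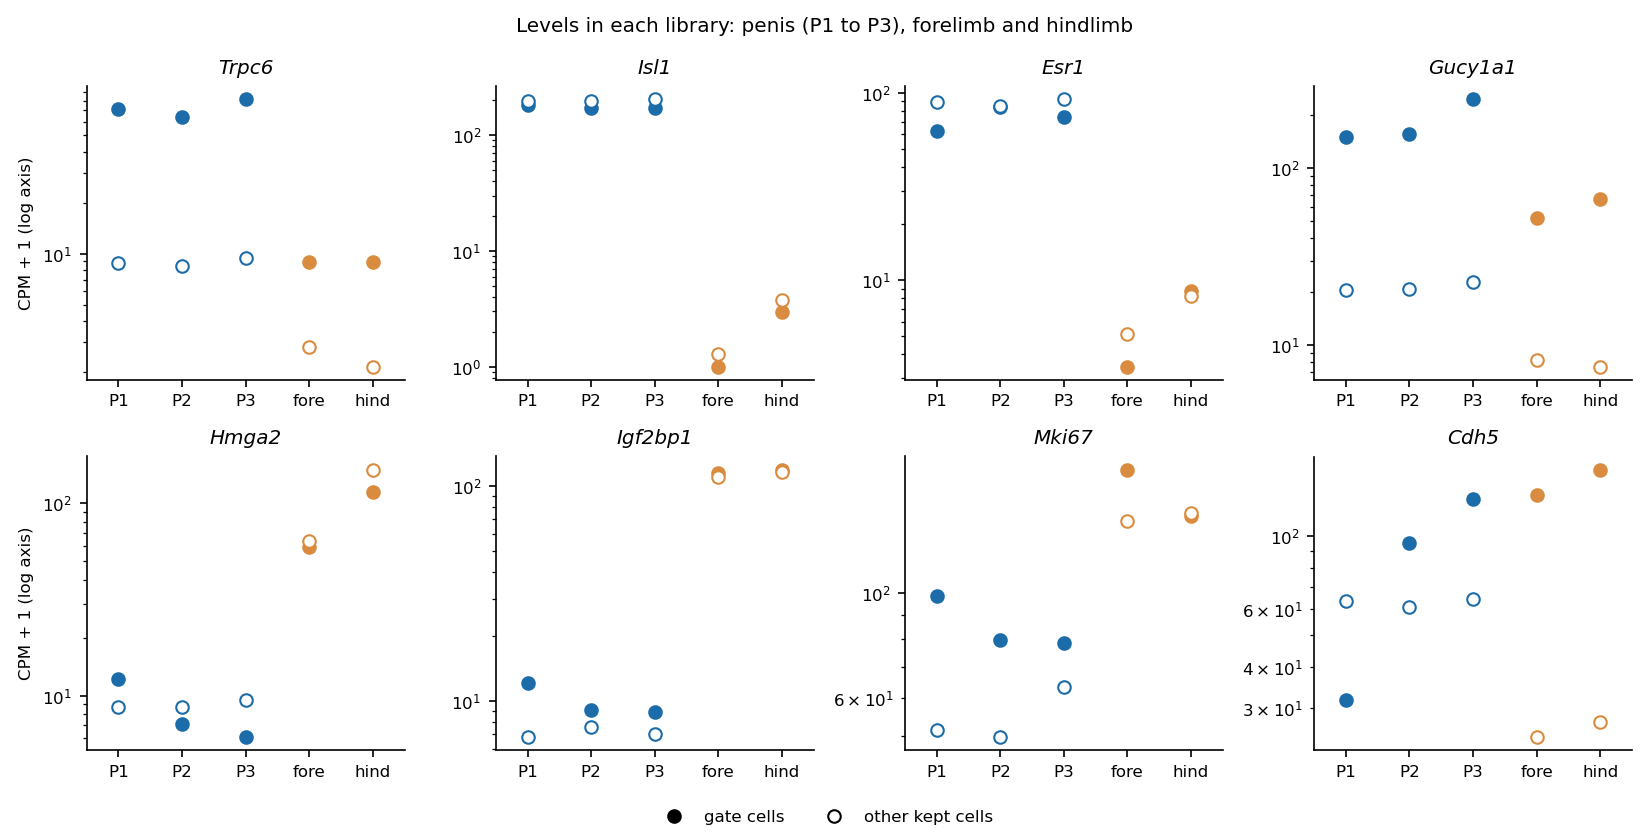
Levels of 8 genes in CPM plus 1 (log axis) in each library, penis 1 to 3 (P1 to P3), forelimb and hindlimb; filled points are gate cells and open points all other kept cells of the library. Isl1 and Esr1 are high in penis in gate and other cells alike, Trpc6 is highest in penis gate cells, Hmga2 and Igf2bp1 are high in limb in both, and Cdh5 is above the other cells in both limb libraries but not in penis 1.

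The contrast of gate cells with other cells of the same library was then compared between penis and limb, in 1 fit with an interaction term. Of 20726 genes, 99 had a larger log2 fold change in penis (0.478%) and 152 a smaller one (0.733%). Without penis 2 the count of larger changes was 64. For cells with 4 or more gate genes, 220 of 20095 were larger (1.09%) and 200 smaller (0.995%). Of 15 steroid genes 0 were called by edgeR and 1 by DESeq2, with 5 at an unadjusted p under 0.05 in edgeR. Of 30 division genes 0 were called by either tool, with 13 at an unadjusted p under 0.05, all 13 with the larger change in penis; with 4 or more gate genes 2, Cenpe and Mki67, had a larger change, and 0 steroid genes were called. Of 25 pericyte markers, 3 had a larger change in penis and 3 a smaller one, and the counts were the same with 4 or more gate genes. Of 12 endothelial markers 8 had a smaller change in penis, 0 a larger one, and with 4 or more gate genes 10 and 0. In limb gate cells the endothelial markers summed to 937 and 1085 CPM against 299 and 290 CPM in other limb cells, while in penis the gate was below the other cells in penis 1 and above them in penis 2 and 3.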

How the data were processed

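Single-cell RNA-seq libraries (10X 3′ v3.1) were made from penis (3 libraries), forelimb (1) and hindlimb (1) after enzymatic dissociation and a 70 µm strainer. Per the labels' processing notes the authors used Cell Ranger 7.0.0 and the mm10 build; whether intronic reads were counted is not given in the sources used here. The deposited matrices hold raw UMI counts of 32285 genes, which were used as deposited. The files held 8411 to 28266 barcodes a library. A barcode was kept as a cell with 500 to 6000 detected genes, at most 5% mitochondrial UMIs and log10 genes per log10 UMI of at least 0.8 in penis, and with 100 to 9000 (forelimb) or 9500 (hindlimb) genes and at most 10% mitochondrial UMIs in limb.

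Counts were summed per library and cell set. Sums were compared with edgeR 4.0.16 (quasi-likelihood test, TMM, filterByExpr, Benjamini-Hochberg over all genes; limma 3.58.1, R 4.3.3), with libraries entered as blocks in the penis comparisons and in the interaction, because both sets of a pair came from 1 library. Calls needed an adjusted p under 0.01 and a log2 fold change beyond 1. The genes that define a set were left out of its tests: the 9 genes of the rule in every fit, and the 6 endothelial genes in the fit against endothelial cells. DESeq2 1.42.0, no filter, single libraries left out, and other limits on depth, gate and mixed barcodes were alternatives. The procedure was tested on simulated counts. Penis cells were clustered with scanpy 1.11.5 (3000 variable genes, 50 components, 20 neighbours, resolution 1.0) without the 9 genes. CPM are summed UMIs scaled to a total of 1000000, with no scaling between sets. Genes were named by the lists and by a rule on size: among called genes that changed the same way in every library, at a mean of at least 50 CPM in the higher set, the 12 with the largest and the 6 with the smallest change. The members and lists were chosen with earlier results of these data known. Replicates are libraries, and a share's interval covers counting error only. Doublets were scored with Scrublet, whose automatic threshold marked too few cells to be used; no doublets were removed. Positions are from GENCODE and upstream windows from RefSeq, both on GRCm38. Cluster comparisons were made on the genes that formed the clusters and are descriptions. Some genes are not reported here.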

Additional observations from a re-analysis of the deposited data

Results flagged for a closer look

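Of 436 genes of the lists, 43 differed between penis and limb in the log2 fold change of gate cells over other cells, by the interaction term of 1 edgeR fit (adjusted p under 0.01 and a difference beyond 1). The change was larger in penis for 10 and smaller for 33. Of all 20726 genes tested, 99 had a larger change (0.478%) and 152 a smaller one (0.733%). The lists were chosen with earlier results of these data known. The 13 described here were chosen after their values were seen. They are given as penis minus limb, on the log2 scale, with the libraries on which a call rested; where forelimb or hindlimb is left out, the 1 remaining limb library is assumed to vary as the penis libraries do.

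The change was larger in penis for Ebf2 (2.65 ± 0.12 SE, adjusted p = 1.5e-07), Lama5 (2.19 ± 0.29, adjusted p = 0.00062), P2ry14 (2.04 ± 0.34, adjusted p = 0.0032), Itga7 (1.56 ± 0.25, adjusted p = 0.0025) and Cacnb2 (1.21 ± 0.14, adjusted p = 0.00020). Ebf2 was at 218 and 213 CPM in limb gate cells against 136 and 135 CPM in other limb cells, so the limb started from a level that the penis did not have outside the gate (6.32 to 8.44 CPM). Itga7 and P2ry14 were not called without penis 2 (1.55, adjusted p = 0.016; 1.99, adjusted p = 0.023), without penis 3 (1.40 and 1.83) or without forelimb (1.31 and 1.90). In gate cells with no smooth muscle gene, P2ry14 (1.39), Itga7 (0.87), Lama5 (1.47) and Cacnb2 (0.77) were not called.

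It was smaller in penis for the pericyte markers Foxs1 (-2.87 ± 0.45, adjusted p = 0.0020), Cox4i2 (-1.82 ± 0.18, adjusted p = 7.5e-05) and Art3 (-1.15 ± 0.20, adjusted p = 0.0040), and for the growth factor gene Igf1 (-1.77 ± 0.10, adjusted p = 8.6e-07). Foxs1 was near 0 in other limb cells (0.189 and 0.201 CPM), and was not called without penis 2 (-2.69, adjusted p = 0.012) or hindlimb (-2.59, adjusted p = 0.029). Art3 was not called without penis 2 (-1.07, adjusted p = 0.026), without hindlimb (adjusted p = 0.063) or without gate cells that held 2 or more endothelial genes (-0.64, adjusted p = 0.20). Igf1 was at 267, 331 and 277 CPM in penis gate cells against 729, 748 and 785 CPM in other penis cells, and at 382 and 306 CPM in limb gate cells against 272 and 234 CPM in other limb cells, so it stood on opposite sides in the tissues.

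The change was also smaller in penis for genes of the endothelium and its basement membrane, Cdh5 (-2.13 ± 0.33, adjusted p = 0.0021), Emcn (-2.28 ± 0.38, adjusted p = 0.0031), Tie1 (-2.15 ± 0.29, adjusted p = 0.00069) and Col15a1 (-2.17 ± 0.11, adjusted p = 2.5e-07). Without gate cells that held 2 or more endothelial genes, Cdh5 was at 0.36, Emcn at -1.70, Tie1 at -0.77 and Col15a1 at -0.10, none of them called. Cdh5 and Emcn are among the 6 genes by which those cells were taken out, so their levels fall by construction; Tie1 and Col15a1 are not. With DESeq2, Cdh5 (-2.24, adjusted p = 0.052) and Emcn (-2.41, adjusted p = 0.060) were not called. Cdh5 was also not called without penis 2 (-2.32, adjusted p = 0.011), nor Emcn in gate cells with no smooth muscle gene (-2.20, adjusted p = 0.010).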

How the results depend on the processing

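The share of gate cells (2.78%) was 1.13% with 4 or more gate genes, 1.71% with no smooth muscle gene, 0.949% within cluster 13, 0.941% after thinning to 2000 UMIs, and 2.69 to 2.91% with 1 library left out. Against other penis cells, 277 genes rose and 354 fell; this became 545 and 606 with 4 or more gate genes, 181 higher with no smooth muscle gene, 569 lower with no filter, 562 lower without cells holding 2 endothelial genes, 711 and 1115 for gate cells of cluster 13 (made from the same genes, so a description, with a median over all genes of -0.18), and 209 to 345 and 243 to 514 with 1 library left out. Against smooth muscle, 199 higher became 110 with DESeq2 and 347 with no filter, 165 lower became 266 within cluster 13, and leaving out a library gave 74 to 276 and 76 to 213. Against endothelium, 1812 and 1111 became 1040 and 680 with 4 or more gate genes, and 1518 to 1769 and 935 to 1092 with a library left out. Penis against limb, 981 and 730 became 532 and 345 with 4 or more gate genes, 1182 lower with no filter, 475 lower with no smooth muscle gene, and 595 to 933 and 444 to 733 with a library left out. For the penis and limb difference, 99 and 152 became 220 and 340 with no filter, 220 higher with 4 or more gate genes, 50 higher with no smooth muscle gene, and 64 to 100 and 103 to 173 with a library left out. Cuts of the gate and left-out libraries also lower the number of cells or libraries; the cause of the other shifts was not tested.

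The replicate block paired cell sets of the same library. Without it, 322 genes rose and 416 fell against other penis cells, 178 and 150 against smooth muscle and 1898 and 1162 against endothelium; Ptn and, against smooth muscle, Cdh5 were then not called. Penis and limb libraries are different animals and were not paired; the forelimb and hindlimb libraries, which may share embryos, stood as 2 replicates of 1 limb group.

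Directions turned as follows. With 4 or more gate genes, and within cluster 13, the change over other penis cells became -1.50 and -4.27 for Dcn and -0.98 and -2.34 for Clec3b; the change over smooth muscle became -0.059 and -2.89 for Dcn, 0.64 and 1.04 for Gucy1a1, 0.70 and 1.17 for Gucy1b1 and 0.48 and 1.27 for Heyl, and within cluster 13 -0.43 for Clec3b and -2.33 for Cdh5. Over other penis cells, Kdr became -1.47 and -3.30 and Cdh5 -4.80 and -3.53 without cells holding 2 endothelial genes and within cluster 13, and Col4a5 0.041 with no smooth muscle gene. Over smooth muscle, Cdh5 became -3.64 without cells holding 2 endothelial genes, and Pdgfrb -0.13 and Ndufa4l2 -0.23 with no smooth muscle gene. For the penis and limb difference, Cdh5 became 0.36 without cells holding 2 endothelial genes. Cdh5 is 1 of the 6 endothelial genes, so leaving out those cells lowers its level in gate cells by construction. The division ratio of 0.47 became -0.79 within cluster 13 and was 0.42 to 0.57 with a library left out.

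For the genes followed across settings, 1554 values kept direction and side of the limits, 76 no longer passed, 37 newly passed and 23 turned. Some genes named from the lists were not followed, among them Ebf2, Tbx18 and Acta2 in penis against limb. Leaving out doublets called by Scrublet was not run, since its threshold marked under 0.5% of cells. Without the top 5% of scores, 1 of the followed genes, Col4a3, lost its call against other penis cells. Depth limits genes of a few CPM, for which a library's gate cells hold a few UMIs.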
